A study of Mus musculus with 19 samples.

Results

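The genes described are the FGF and HGF receptors of muscle precursor cells and the genes of ERK signalling that act downstream of them. They are the ligand gene Fgf2, the receptor genes Fgfr1, Fgfr4 and Met, the transcription factor genes Etv4 and Etv5, and the feedback inhibitor genes Dusp6, Spry1, Spry2 and Spry4. The 10 genes were chosen by name and make up 10 of the 35598 genes measured. All 10 passed the filter on low counts, which kept 15123 genes.

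RNA was sequenced from primary myoblasts of mouse hind limb, which are muscle precursor cells that divide in culture and fuse into multinucleate myotubes. The labels give a wild-type (WT) genotype or a deficiency of Glud1, the mitochondrial glutamate dehydrogenase gene, and the latter libraries are written here as KO-labelled. WT libraries numbered 3 of myoblasts after 24 h in growth medium, 3 of differentiated myotubes at 48 h and 4 of fused myotubes at 72 h. KO-labelled libraries numbered 3, 2 and 4 at the same stages. Neither the promoter nor the method behind the deficiency is given in the sources used here. Both groups are marked KO in the deposited file names, with a T added for the KO-labelled libraries, and the labels were followed.

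Whether replicates of a group came from different animals or from parallel cultures is not given, so p-values measure the spread between these libraries only. Libraries held 16168131 to 30742634 estimated counts. Summed per gene, Glud1 counts did not separate the genotype labels, with levels of 184 to 192 CPM (counts scaled to library size) in WT myoblasts and 185 to 190 CPM in those labelled KO. The Glud1 log2 fold change was -0.02 at 24 h, -0.09 at 48 h and -0.02 at 72 h, with adjusted p = 0.849, 0.193 and 0.748 (edgeR, adjusted by Benjamini-Hochberg over the genes tested). Its transcripts did differ: the processed transcript ENSMUST00000159784 held 11.1% to 11.9% of Glud1 counts in WT myoblasts and 5.96% to 6.44% in those labelled KO, 7.98% to 12.8% against 7.18% to 7.34% at 48 h, and 11% to 13.2% against 4.72% to 6.6% at 72 h. TPM values, which are scaled to transcript length as well as depth, were lower in the KO-labelled libraries, with 136 to 142 against 163 to 175 TPM at 24 h and no overlap at any stage. ENSMUST00000159784 has 699 bases against 3390 for the main transcript, so a lower share of it lowers the summed TPM at equal counts. The TPM is therefore not a measure separate from the shares. These differences were seen after the gene counts and were not tested. All 7 muscle lineage markers (Pax7, Myf5, Myod1, Myog, Des, Ckm and Myh3) reached 1 CPM in a library of each group. Summed levels of the fibroblast, endothelial, leukocyte and Schwann cell marker lists lay between 0.247 and 7.75 CPM in every library, with Dpt and Emcn listed at 0 in all 6 groups. The labels give no sequencing batch or date.

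FGFs bind FGF receptors at the cell surface with heparan sulphate as a cofactor, and HGF binds the receptor tyrosine kinase Met. Both receptor types activate Ras and the kinase cascade that ends in ERK, which in muscle precursor cells favours division and holds back differentiation. ERK activity raises transcription of Etv4, Etv5, Dusp6 and the Sprouty genes. Dusp6 protein removes the activating phosphates from ERK and Sprouty proteins inhibit signalling near the receptor, so these transcripts are read in many tissues as a record of ERK signalling.

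The RefSeq promoter table of build GRCm38.p6 covers 250 bases before and 50 bases after each gene start. From it, 8 windows of 7 of the 10 genes were used. No window of Fgfr1, Etv4 or Spry4 was used, which does not mean that the table lacks one. The 4 windows printed here belong to Met and Spry2, which differed between the genotype labels at 48 h, and to Dusp6 and Etv5, which fell and then rose again over the stages. Capitals mark matches to CCGGAA, the core bound by ETS factors such as Etv4 and Etv5, to TGANTCA, the AP-1 site, or to CAGCTG, an E box used by myogenic factors, searched on both strands. Met lies at chr6:17463707-17464006 on the plus strand, Spry2 at chr14:105896770-105897069 on the minus strand, Dusp6 at chr10:99262981-99263280 on the plus strand and the upstream window of Etv5 at chr16:22439521-22439820 on the minus strand.
Met: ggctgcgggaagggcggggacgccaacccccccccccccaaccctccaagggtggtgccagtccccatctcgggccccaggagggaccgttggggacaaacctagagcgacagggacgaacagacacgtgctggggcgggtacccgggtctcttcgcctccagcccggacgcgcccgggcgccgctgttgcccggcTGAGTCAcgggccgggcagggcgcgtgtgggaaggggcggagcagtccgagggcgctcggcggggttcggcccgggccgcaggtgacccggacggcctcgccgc
Spry2: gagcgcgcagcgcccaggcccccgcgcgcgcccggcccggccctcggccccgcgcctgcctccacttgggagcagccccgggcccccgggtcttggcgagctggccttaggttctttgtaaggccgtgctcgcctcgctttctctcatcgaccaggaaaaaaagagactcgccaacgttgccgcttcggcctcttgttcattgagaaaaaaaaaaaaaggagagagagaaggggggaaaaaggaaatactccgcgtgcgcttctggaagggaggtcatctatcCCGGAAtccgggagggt
Dusp6: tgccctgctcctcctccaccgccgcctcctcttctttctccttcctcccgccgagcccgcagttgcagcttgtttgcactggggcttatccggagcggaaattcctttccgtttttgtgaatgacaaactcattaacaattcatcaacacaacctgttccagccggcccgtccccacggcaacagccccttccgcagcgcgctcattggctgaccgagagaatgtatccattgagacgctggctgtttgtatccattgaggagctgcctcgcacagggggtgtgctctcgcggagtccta
Etv5: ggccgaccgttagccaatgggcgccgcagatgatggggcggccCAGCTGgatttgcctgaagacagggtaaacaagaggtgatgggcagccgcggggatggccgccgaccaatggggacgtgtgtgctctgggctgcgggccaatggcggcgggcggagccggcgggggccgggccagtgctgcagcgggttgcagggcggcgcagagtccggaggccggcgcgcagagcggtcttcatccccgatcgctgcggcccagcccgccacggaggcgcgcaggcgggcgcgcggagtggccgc
The Spry2 window held 1 CCGGAA match, the Met window 1 TGANTCA match and the Etv5 window 1 CAGCTG match, while the Dusp6 window held none of the 3 motifs. Among the windows not printed, that of Fgfr4 held 1 CCGGAA match, and those of Fgf2, Spry1 and the second, downstream window of Etv5 held none. For comparison, CCGGAA occurred in 14.9%, TGANTCA in 7.81% and CAGCTG in 16.3% of the 32851 promoters in the table. A match is a description of these letters only.

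Fgf2, which encodes a secreted growth factor of myoblasts, was low in every group. Its level in WT myoblasts was 4.01, 4.8 and 4.45 CPM, and in WT differentiated myotubes 0.901, 0.697 and 0.599 CPM. WT fused myotubes held 1.05, 0.634, 0.863 and 1.03 CPM. The myoblast libraries therefore stood above all later WT libraries, and the 48 h and 72 h libraries overlapped. The fall from 24 h to 48 h was 6.08-fold (log2 fold change -2.60 ± 0.18, SE, edgeR adjusted p = 3.53e-13, n = 3 and 3). KO-labelled libraries held 4.55 to 5.10 CPM at 24 h, 0.681 to 0.802 CPM at 48 h and 1.02 to 1.53 CPM at 72 h.

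Fgfr1, an FGF receptor gene, was highest in myoblasts, where its mean per length was 67.3 ± 4.35 TPM against 0.546 ± 0.208 TPM for Fgfr4 (SD, WT, n = 3). WT myoblasts held 126, 124 and 132 CPM, and KO-labelled myoblasts 127, 121 and 118 CPM. At 48 h the WT libraries held 65.8, 87.9 and 81.4 CPM and the KO-labelled libraries 82.0 and 81.1 CPM. At 72 h they held 66.0 to 72.1 CPM in WT and 61.5 to 64.2 CPM in KO-labelled cells. Every later library was below every myoblast library. In WT the level fell 1.62-fold from 24 h to 48 h (log2 fold change -0.70 ± 0.06, SE, edgeR adjusted p = 2.65e-11). A further change of -0.19 ± 0.06 on the log2 scale from 48 h to 72 h passed the test (edgeR adjusted p = 0.00664) although the groups overlapped, and it did not pass without WT differentiated replicate 2 (adjusted p = 0.12).

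Fgfr4, another FGF receptor gene, was near the limit of measurement. It had 18 to 27 estimated counts per library in WT myoblasts, 18 to 23 in WT differentiated myotubes and 3 to 8 in WT fused myotubes. WT levels were 0.879, 0.778 and 0.902 CPM at 24 h, and 0.854, 0.827 and 0.810 CPM at 48 h. They were 0.137, 0.254, 0.247 and 0.330 CPM at 72 h, below every earlier WT library. The fall came between 48 h and 72 h (log2 fold change -1.75 ± 0.345, SE, edgeR adjusted p = 5.91e-05), and Fgfr4 was the 1 gene of the 10 that did not pass the test between 24 h and 48 h in WT (log2 fold change -0.05 ± 0.28, adjusted p = 0.873). KO-labelled libraries held 0.602, 0.327 and 0.687 CPM at 24 h, all below the WT myoblasts, but the difference did not pass the test (log2 fold change -0.66 ± 0.28, SE, edgeR adjusted p = 0.136). The same held at 48 h, with 0.428 and 0.734 CPM (-0.51 ± 0.36, adjusted p = 0.336).

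Met, the receptor of HGF, was among the members that fell most. WT myoblasts held 217, 220 and 213 CPM, WT differentiated myotubes 22.7, 21.6 and 21.5 CPM and WT fused myotubes 18.0, 18.6, 16.2 and 16.2 CPM. The fall from 24 h to 48 h was 9.90-fold (log2 fold change -3.31 ± 0.05, SE, edgeR adjusted p = 1.01e-28). KO-labelled libraries held 252, 232 and 249 CPM at 24 h, above all WT myoblasts, and 14.8 and 13.7 CPM at 48 h, below all WT libraries of that stage. At 72 h they held 16.2 to 17.4 CPM, within the WT range. The order of the genotype labels for Met was thus opposite at 24 h and 48 h.

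Etv4 and Etv5 encode related ETS factors induced by FGF signalling, and both fell at 48 h and were higher again at 72 h, by very different amounts. Etv4 was 72.9, 69.6 and 74.5 CPM in WT myoblasts and 2.94, 1.61 and 2.18 CPM in WT differentiated myotubes, a 32.5-fold fall (log2 fold change -5.02 ± 0.09, SE, edgeR adjusted p = 1.10e-26). WT fused myotubes held 3.61, 2.85, 3.39 and 2.56 CPM, overlapping the 48 h libraries (0.47 ± 0.15, adjusted p = 0.00617). Etv5 was 99.1, 97.3 and 97.9 CPM in WT myoblasts, 30.1, 30.6 and 30.2 CPM at 48 h, and 190, 200, 184 and 172 CPM at 72 h. Fused myotubes therefore held more Etv5 than myoblasts, while Etv4 remained far below its myoblast level. The Etv5 rise from 48 h to 72 h was 6.15-fold (log2 fold change 2.62 ± 0.05, SE, edgeR adjusted p = 1.05e-24). Per transcript length, the mean of Etv4 was 59.4 ± 3.12 TPM (SD, n = 3) and that of Etv5 36.7 ± 0.105 TPM in WT myoblasts. In WT fused myotubes the order was turned, with 2.13 ± 0.377 TPM for Etv4 and 58.3 ± 4.74 TPM for Etv5 (SD, n = 4).

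Dusp6, the phosphatase gene, followed the same fall and rise as Etv5. WT myoblasts held 74.4, 69.9 and 72.0 CPM, WT differentiated myotubes 16.6, 14.1 and 15.8 CPM and WT fused myotubes 126, 128, 127 and 109 CPM. The 48 h libraries were the lowest and the 72 h libraries the highest, with no overlap between stages. The fall was 4.65-fold (log2 fold change -2.22 ± 0.07, SE) and the rise 7.87-fold (2.98 ± 0.07), with edgeR adjusted p = 2.70e-21 and 1.02e-23. KO-labelled libraries held 72.3 to 73.9 CPM, then 14 and 16.6 CPM, then 125 to 138 CPM, so that Dusp6 overlapped between the labels at all 3 stages.

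The Sprouty genes moved apart from each other. Spry1 was the 1 member that rose between 24 h and 48 h, from 12.7, 11.7 and 14.1 CPM to 63.3, 63.2 and 66.4 CPM in WT, and it reached 99.1, 101, 102 and 88.0 CPM at 72 h. The first rise was 4.99-fold (log2 fold change 2.32 ± 0.06, SE, edgeR adjusted p = 1.19e-22). Sprouty proteins are close relatives, yet Spry2 and Spry4 went the other way at 48 h. Spry2 was 83.0, 79.8 and 86.0 CPM in WT myoblasts, 49.3, 41.8 and 40.7 CPM at 48 h and 56.2, 58.1, 55.3 and 53.0 CPM at 72 h, a partial return (log2 fold change 0.34 ± 0.05 from 48 h to 72 h, SE, edgeR adjusted p = 1.83e-06). Spry4 was 31.7, 30.5 and 31.4 CPM, then 22.3, 23.2 and 22.7 CPM, then 16.3, 18.1, 17.6 and 17.0 CPM, and so was lower at each later stage (log2 fold change -0.46 ± 0.06 and -0.40 ± 0.06, SE, edgeR adjusted p = 2.02e-08 and 5.28e-07).

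**Figure D1:**
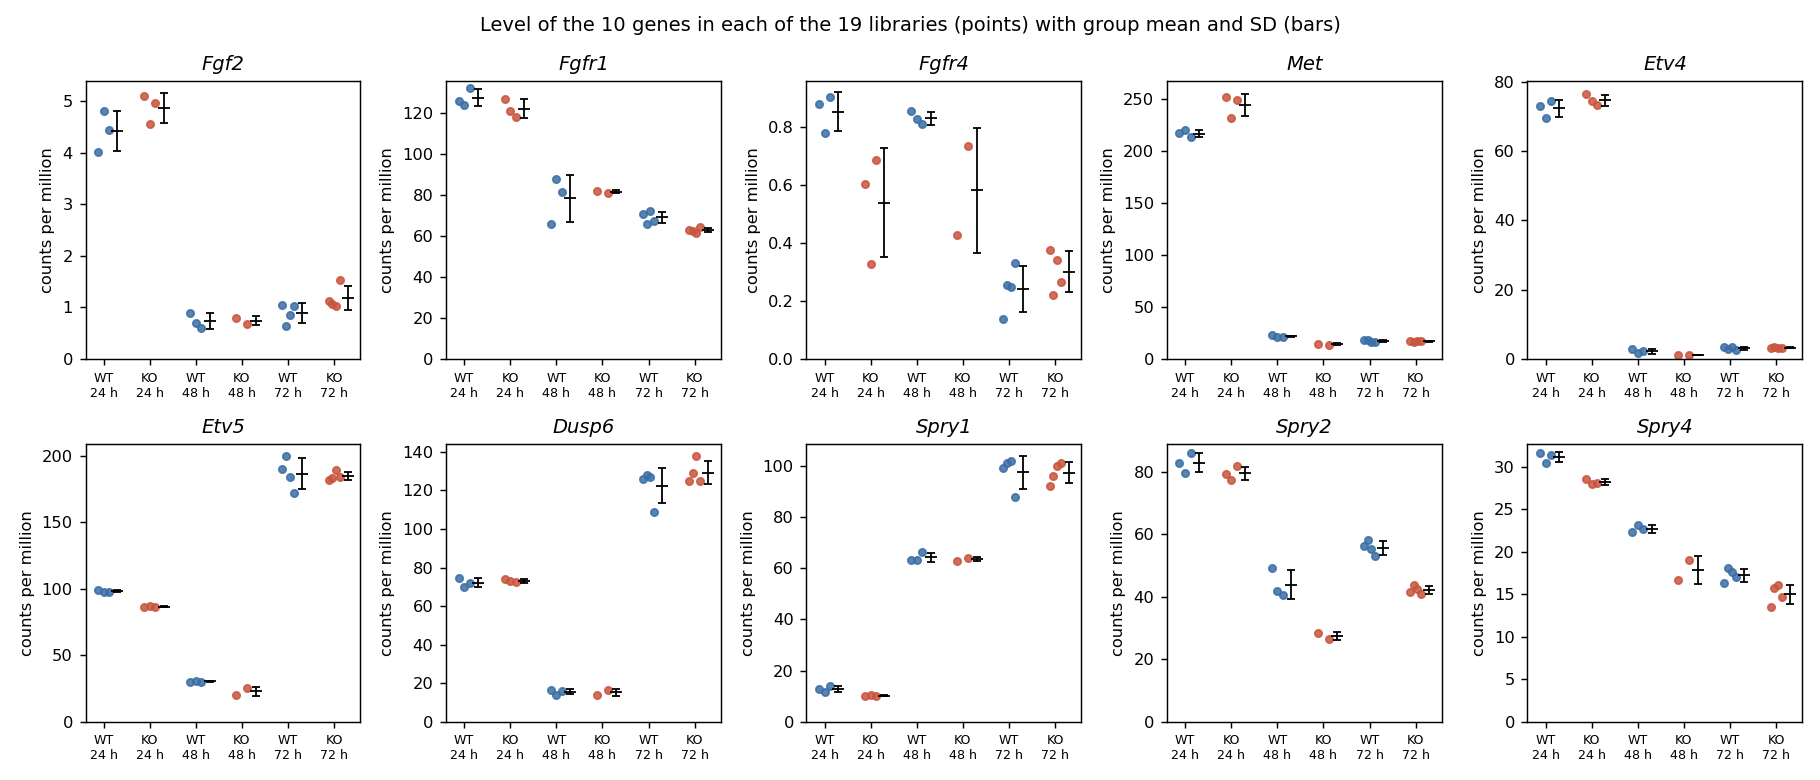
CPM (linear axis from 0) of each of the 10 genes in the 19 libraries, WT in blue and KO-labelled in red, at 24 h (myoblasts), 48 h (differentiated) and 72 h (fused), with the group mean and SD beside the points. Etv5 and Dusp6 are lowest at 48 h and highest at 72 h, Spry1 rises throughout, and Met and Etv4 stay low after 24 h.

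Across the 10 genes, 9 passed the test between WT myoblasts and differentiated myotubes, of which 8 fell and 1 rose, against 85% of all genes called and 42.6% called lower. With so many genes called, the count is close to the background, so no result is read from it. The median log2 fold change was -1.31 over the 10 genes and 0.02 over all genes tested. The 9 calls and their directions were the same under the other scalings tried. From 48 h to 72 h in WT, 5 rose (Spry1, Spry2, Dusp6, Etv4 and Etv5) and 4 fell (Fgfr1, Fgfr4, Met and Spry4), 9 in all against 75.1% of all genes. Of these, Etv4 did not pass without WT differentiated replicate 2 (edgeR adjusted p = 0.079). Between WT myoblasts and fused myotubes all 10 passed, against 85.5%, and the 3 that ended higher were Spry1, Dusp6 and Etv5. The stage comparisons of a genotype share libraries. In bulk RNA, fewer cells of a type and less RNA per cell cannot be told apart.

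KO-labelled libraries gave 9 calls between 24 h and 48 h against 83.7% of all genes, again 8 lower and Spry1 higher. From 48 h to 72 h there were 9 calls against 70.2%, with 7 higher and 2 lower (6 and 3 with DESeq2 size factors or with scaling by library size only), and between 24 h and 72 h all 10 were called against 87.2%. Met, which went down from 48 h to 72 h in WT (log2 fold change -0.35 ± 0.06, SE), went up in KO-labelled cells (0.26 ± 0.07, SE, edgeR adjusted p = 0.00338). That rise did not pass without KO-labelled differentiated replicate 2 (adjusted p = 0.0688) or with an offset for effective transcript length (adjusted p = 0.0681). Fgf2 (edgeR adjusted p = 0.048) was the other member called upward here that was not called in WT, and it failed under 13 of the alternatives. Spry4 (log2 fold change -0.24 ± 0.07, SE, adjusted p = 0.004) failed without KO-labelled differentiated replicate 2 (adjusted p = 0.178). From 24 h to 72 h, Fgfr4 (adjusted p = 0.03) failed under several alternatives, with adjusted p from 0.0515 to 0.134.

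**Figure D2:**
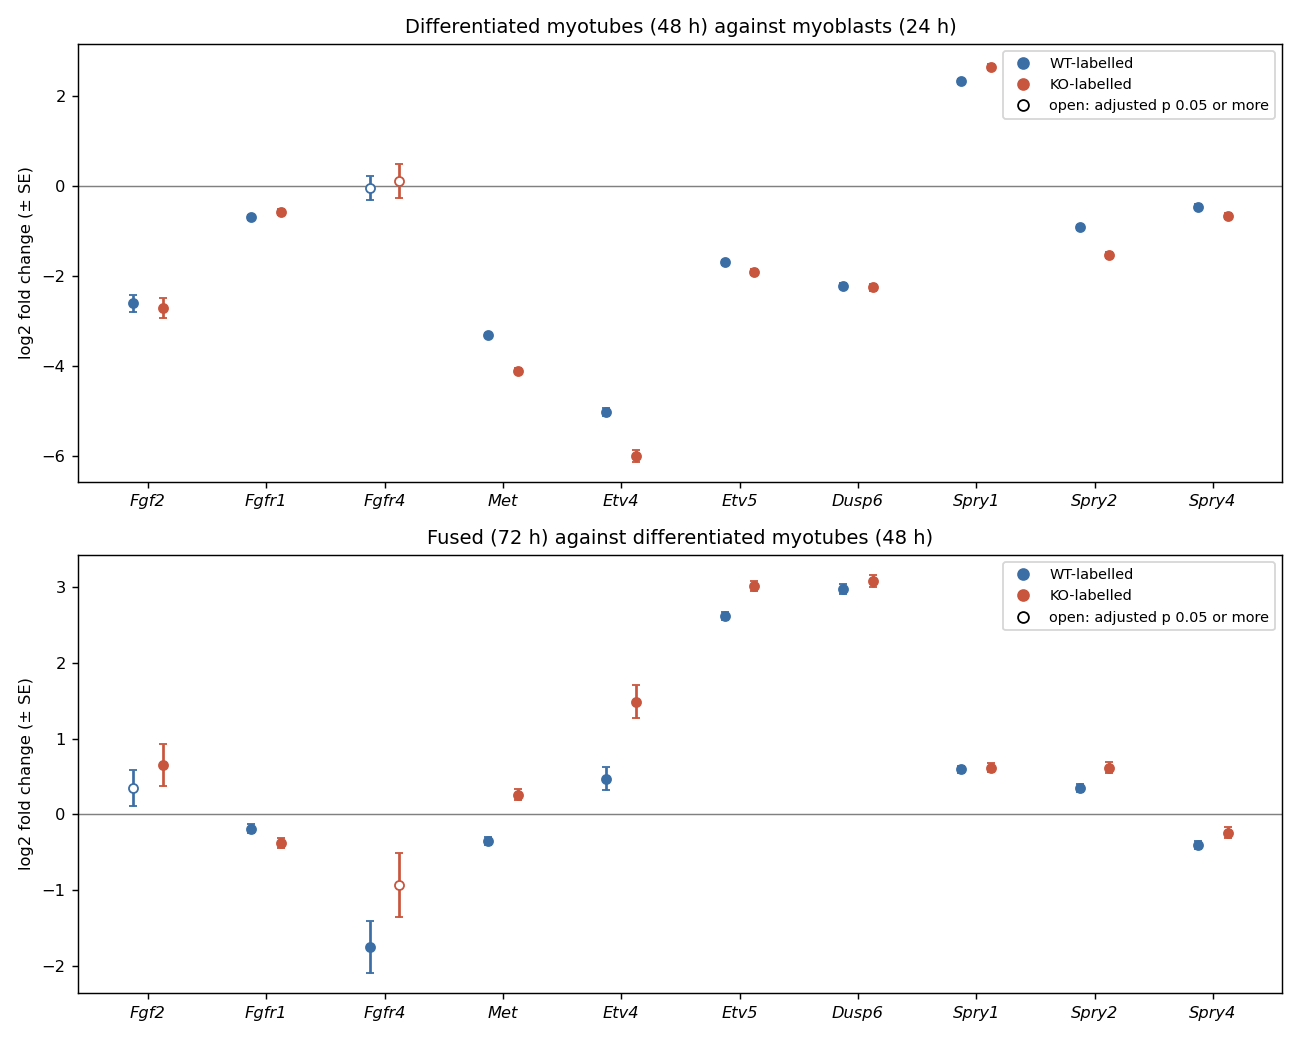
Log2 fold change with SE (vertical axis) of the 10 genes between stages, for WT (blue) and KO-labelled (red) libraries, with open points where the edgeR adjusted p was 0.05 or more. In the upper panel Etv4 falls furthest and Spry1 is the only gene called higher, and in the lower panel Etv5 and Dusp6 rise by 2.62 and 2.98 in WT.

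The genotype labels were then compared at each stage, to see how the receptors and feedback genes differ with the Glud1 label. In myoblasts 3 of the 10 genes passed the test, against 11.6% of all genes tested. Met was higher in KO-labelled myoblasts, 244 ± 10.8 against 217 ± 3.70 CPM (SD, n = 3 and 3; log2 fold change 0.17 ± 0.04, SE, edgeR adjusted p = 0.00346). Spry1 was lower, 10.2 ± 0.331 against 12.8 ± 1.19 CPM (-0.34 ± 0.08, adjusted p = 0.00424), and so was Etv5, 86.4 ± 0.465 against 98.1 ± 0.895 CPM (-0.18 ± 0.05, adjusted p = 0.0107). The differences were 1.13-fold for Met, 1.26-fold for Spry1 and 1.14-fold for Etv5. The groups did not overlap in these 3 genes, nor in Fgfr4 and Spry4, which were not called. Nothing is therefore read from a lack of overlap. The calls of Met and Etv5 were lost with the effective-length offset (adjusted p = 0.328 and 0.0911), and that of Spry1 without WT myoblast replicate 3 (adjusted p = 0.063). Spry4 was not called (log2 fold change -0.15 ± 0.05, SE, edgeR adjusted p = 0.0697). It passed with DESeq2 size factors (adjusted p = 0.0388), a mean CPM filter of 1 (0.0499) or only the libraries compared (0.0169). Among the muscle markers, Myog, Des, Ckm and Myh3 were also lower in KO-labelled myoblasts (log2 fold change -0.63, -0.33, -0.81 and -0.92, edgeR adjusted p = 4.11e-07, 0.000112, 0.0228 and 1.35e-10), while Pax7 had a log2 fold change of 0.01 (adjusted p = 0.922). The summed level of the 7 markers was 1864 to 2037 CPM in WT and 1614 to 1682 CPM in KO-labelled myoblasts. Fibroblast markers summed to 7.13 to 7.75 CPM in WT and 4.03 to 4.96 CPM with the KO label, with 2 of 6 at 1 CPM or more. The part of these markers in the results on Met, Spry1 and Etv5 was not tested.

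Differentiated myotubes at 48 h showed the most differences. Of the 10 genes 5 passed the test, all 5 lower in KO-labelled libraries, against 25.2% of all genes called and 14.1% called lower. Over all genes, 2139 were lower and 1671 higher, and 2812 and 1039 with scaling by library size only, under which the same 5 members were called. Etv4 was 1.18 and 1.15 CPM against 1.61 to 2.94 CPM in WT (log2 fold change -0.93 ± 0.23, SE, edgeR adjusted p = 0.00382, n = 3 and 2), resting on 22 counts in each KO-labelled library. Spry2 was 28.5 and 26.6 CPM against 40.7 to 49.3 CPM, 1.59-fold lower (-0.67 ± 0.07, adjusted p = 5.18e-08). Met was 14.8 and 13.7 CPM against 21.5 to 22.7 CPM, 1.54-fold lower (-0.62 ± 0.07, adjusted p = 3.53e-07). These are a transcription factor, a feedback inhibitor and a receptor. In none did the groups overlap, but neither did those of Fgfr4, which was not called. Etv5 was 20.4 and 25.3 CPM against 30.1 to 30.6 CPM (-0.41 ± 0.07, adjusted p = 0.000144). Spry4 was 16.7 and 19 CPM against 22.3 to 23.2 CPM (-0.35 ± 0.07, adjusted p = 0.000468). The other members did not pass the test: Dusp6 differed by -0.02 ± 0.10, Spry1 by -0.02 ± 0.06, Fgfr1 by 0.05 ± 0.07 and Fgf2 by 0.04 ± 0.30 on the log2 scale (SE).

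The calls of Met, Spry2, Spry4 and Etv5 at 48 h held under all 27 alternatives, 19 of which left out 1 library, and that of Etv4 under 26, the exception being the effective-length offset (edgeR adjusted p = 0.0628). The group has only 2 KO-labelled libraries, so leaving out 1 of them assumes that the other varies like the rest. Some muscle markers also differed at 48 h. Pax7, the factor that marks muscle stem cells and myoblasts, was 5.63 ± 0.781 CPM in KO-labelled and 10.6 ± 0.579 CPM in WT libraries (log2 fold change -0.92 ± 0.14, SE, edgeR adjusted p = 1.01e-05). Myf5 and Myod1 were lower too (-0.19 and -0.31, adjusted p = 0.0122 and 0.000155), whereas Myog, Des, Ckm and Myh3 had adjusted p of 0.951, 0.247, 0.487 and 0.909. The summed level of the 7 markers was 21202 to 24756 CPM in WT and 21396 to 23482 CPM in KO-labelled libraries. Most of it was Myh3 (means 1.61e+04 and 1.6e+04 CPM), so the sum does not show the lower Pax7. The part of the markers in the differences of Met, Etv4, Etv5, Spry2 and Spry4 was not tested.

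In fused myotubes at 72 h only Spry2 and Spry4 passed, 2 of 10 against 13% of all genes. Spry2 was 41.6, 43.8, 42.6 and 40.8 CPM in KO-labelled and 53.0 to 58.1 CPM in WT libraries, 1.32-fold lower without overlap (log2 fold change -0.40 ± 0.05, SE, edgeR adjusted p = 3.66e-06). This call held under all 27 alternatives. Spry4 was 13.5 to 16.1 CPM against 16.3 to 18.1 CPM (-0.19 ± 0.06, adjusted p = 0.0363), and it failed under 9 alternatives, 5 of them leaving out a library, with adjusted p from 0.0633 to 0.16. Met, Etv4 and Etv5, which differed at 48 h, had log2 fold changes of -0.01 ± 0.06, 0.08 ± 0.14 and -0.01 ± 0.04 at 72 h. Fgfr1 was 61.5 to 64.2 CPM in KO-labelled and 66.0 to 72.1 CPM in WT libraries, did not overlap and did not pass (edgeR adjusted p = 0.131), although it passed under 3 alternatives (adjusted p from 0.0189 to 0.0366). Of the 7 muscle markers only Myf5 was called at 72 h, lower with the KO label (-0.31, adjusted p = 3.18e-06), and 2 of the 7 were called lower with scaling by library size only. Their summed level was 20068 to 22012 CPM in WT and 19191 to 19794 CPM in KO-labelled libraries, without overlap. Most of this sum was Myh3, with means of 1.4e+04 and 1.25e+04 CPM, which was not called (edgeR adjusted p = 0.0564). The sum therefore does not stand for all 7 markers. The part of the markers in the results on Spry2 and Spry4 was not tested.

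**Figure D3:**
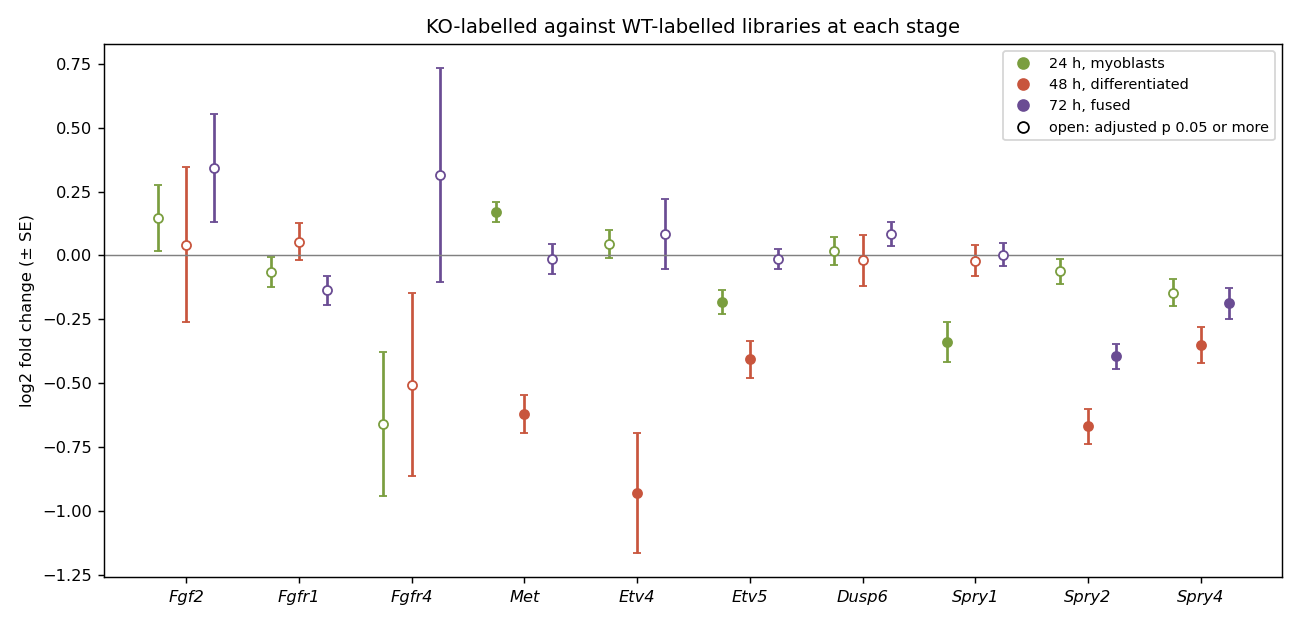
Log2 fold change with SE of KO-labelled against WT libraries for the 10 genes at 24 h (green), 48 h (red) and 72 h (purple), with open points where the edgeR adjusted p was 0.05 or more. The 5 filled red points, for Met, Etv4, Etv5, Spry2 and Spry4, are all below 0, and Spry2 and Spry4 remain below 0 at 72 h.

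Whether the genotype difference itself changed between stages was tested as an interaction in the same fit. From 24 h to 48 h it changed for 4 of the 10 genes against 19.1% of all genes, downward for Met, Spry2 and Etv4 and upward for Spry1. With scaling by library size only it was 5 downward and 0 upward, since Spry4 (edgeR adjusted p = 0.0316) and Etv5 (0.0276) were gained and Spry1 lost, and over all genes the split went from 1714 downward and 1176 upward to 2297 and 820. The call of Spry1 was lost under 6 alternatives, with edgeR adjusted p of 0.109 without WT myoblast replicate 3, 0.0503 and 0.0502 without KO-labelled myoblast replicates 1 and 3, and 0.0723 without KO-labelled differentiated replicate 2. That of Etv4 was lost with the effective-length offset (adjusted p = 0.0844), while those of Met and Spry2 held under all 27.

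From 48 h to 72 h the genotype difference changed for 4 genes against 14.8%, upward for Met, Spry2, Etv4 and Etv5. Only the call of Met held under all 27 alternatives. Spry2 lost it under 8, with edgeR adjusted p between 0.0513 and 0.19, 6 of them leaving out WT differentiated replicate 1, WT fused replicate 4, either KO-labelled differentiated library or KO-labelled fused replicate 2 or 3. Etv4 lost it without KO-labelled differentiated replicate 1 or 2 (adjusted p = 0.058 and 0.0665) and with the effective-length offset (0.202), and Etv5 without replicate 1 (adjusted p = 0.0798). From 24 h to 72 h it changed for 2 genes, Spry1 and Spry2, against 10.3%, and that of Spry1 did not pass without WT myoblast replicate 3 (adjusted p = 0.0877).

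Fgfr1 transcripts differed between stages as well as its level. The 19 Fgfr1 transcripts in the files include 6 that span a cassette exon of 267 bases at chr8:25555508-25555774 (GRCm38, plus strand), and 3 of the 6 lack it. This exon encodes the first immunoglobulin-like domain of the receptor, and skipping it gives the form known as FGFR1 beta. The junctions that tell the forms apart, taken from the annotated transcripts and printed with the exon after the junction in capitals, are the following.
into the exon: ccttgcctgaacaagCTCAGCCCTGGGGAG
out of the exon: ccgtcaatgtctcagATGCACTCCCATCCT
exon skipped: ccttgcctgaacaagATGCACTCCCATCCT
The share of estimated counts on spanning transcripts that lacked the exon was 50.6%, 54.8% and 48.0% in WT myoblasts and 52.3%, 46.8% and 57.8% in KO-labelled myoblasts. It was 27.6%, 27.9% and 28.3% in WT and 18.1% and 29.8% in KO-labelled libraries at 48 h. At 72 h the WT libraries held 13.5% to 31.2% and the KO-labelled libraries 16.1% to 31.3%. All 6 myoblast libraries stood above all 13 later ones, with overlap between the labels at each stage. Transcript ENSMUST00000119398, which lacks the exon, held 17.2% to 27.6% of all Fgfr1 counts in the myoblast libraries and 0% to 3.25% later. This pattern was chosen after its values were seen, and shares rest on the deposited division of reads among overlapping transcripts.

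A retained-intron transcript of Fgfr1, ENSMUST00000126118, was most frequent at 48 h. It held 0.53% to 2.72% of Fgfr1 counts in myoblasts, 16.9% to 27.2% in differentiated and 2.13% to 6.96% in fused myotubes, without overlap of the 48 h libraries with the rest, a pattern also chosen after its values were seen. Its first exon, at chr8:25563405-25564484, begins inside the upstream one of a pair of mutually exclusive exons and runs through the intron to the end of the downstream one. These exons set the ligand preference of the receptor. At 48 h its share was 16.9% to 22.3% in WT and 24.2% and 27.2% in KO-labelled libraries. The downstream one of these is the IIIc exon of 145 bases at chr8:25564340-25564484, and the upstream one the IIIb exon of 151 bases at chr8:25563374-25563524. The IIIc form is the usual one of mesenchymal cells. Transcripts that contain every base of the IIIc exon held 71.3% to 76.3% of Fgfr1 counts in myoblasts, 67.4% to 75.6% at 48 h and 69.6% to 85.1% in fused myotubes, so the stages overlapped. Those that contain every base of the IIIb exon held 24.8% to 32.7%, 17.6% to 26.6% and 21.3% to 36.8%. The retained-intron transcript is counted for IIIc here, and transcripts with both exons, 4.07% to 10.9% of counts, are counted for each. Counting only transcripts with exactly the annotated IIIc exon and without the IIIb exon, the share was 63.6% to 70.1% in myoblasts, 35.2% to 44.7% at 48 h and 55.2% to 71.2% in fused myotubes, which leaves out the retained-intron transcript.

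**Figure D4:**
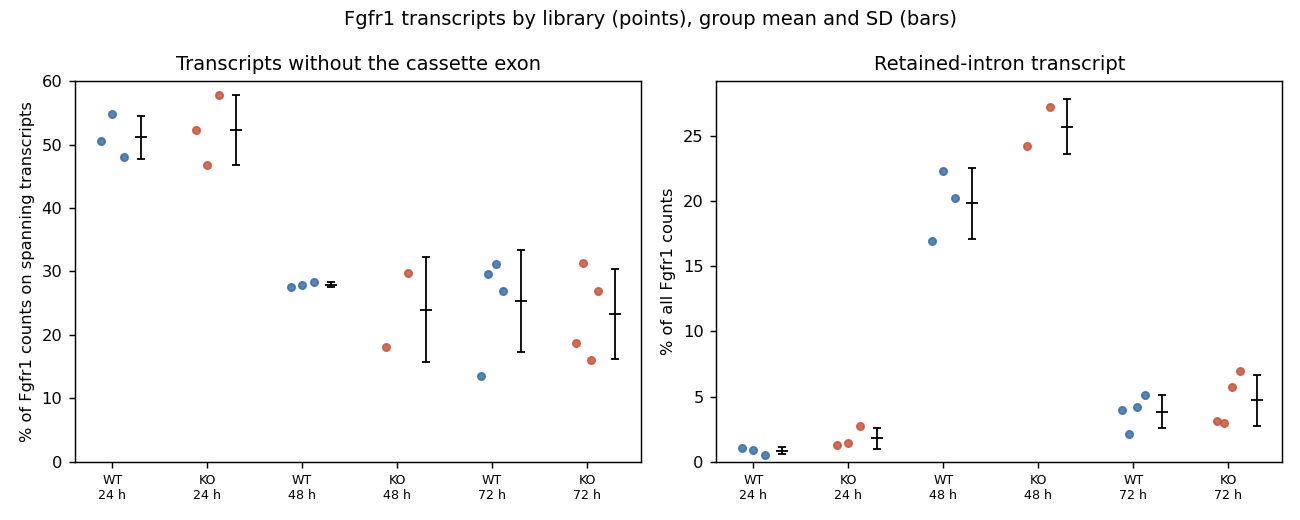
Percent of Fgfr1 estimated counts by library, WT in blue and KO-labelled in red, with group mean and SD: on the left, transcripts without the cassette exon among those spanning it, and on the right, the retained-intron transcript among all Fgfr1 counts. The left shares are 46.8% or more in every myoblast library and 31.3% or less later, and the right shares peak at 48 h.

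The main transcript of a gene, the one with the highest mean share, was compared between the labels for 8 genes with more than 1 transcript. At 24 h and 48 h an exact permutation test cannot go below 0.1 with these group sizes, so those comparisons are given as values only. For Met in myoblasts the groups did not overlap, with 87.1% to 91.2% of counts on ENSMUST00000115443 in WT and 92.6% to 96.3% with the KO label. At 72 h, where the exact test can reach 0.0286, p ranged from 0.171 for Spry1 to 0.914 for Fgfr1 (two-sided, n = 4 and 4, every adjusted p = 1). For Etv4 and Spry1 the division between transcripts was unstable between replicates, for example 0% and 60.6% of Etv4 counts on ENSMUST00000017868 in the KO-labelled differentiated libraries, so transcript shares of these genes are uncertain.

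The rest of the pathway was read from lists of ligands, receptors, cascade and target genes. Among 21 other FGF ligand genes, 8 passed the filter, and all 8 rose in WT from 24 h to 48 h, opposite to Fgf2, where 6407 of all 15123 genes rose. A gene that passed the filter only through its later level had to rise, so nothing is read from this count. Fgf6, a muscle-restricted FGF, rose from 1.36 ± 0.330 to 29.3 ± 1.32 CPM (SD, n = 3 and 3; log2 fold change 4.40 ± 0.12, SE, edgeR adjusted p = 2.53e-22). Fgf21, a hormone-like FGF, rose from 1.53 ± 0.310 to 17.7 ± 0.919 CPM, and Fgf9 from 0.404 ± 0.173 to 3.84 ± 0.580 CPM. Fgf6 was also lower in KO-labelled libraries at 48 h and 72 h, by -0.51 ± 0.10 and -0.70 ± 0.10 on the log2 scale (SE, edgeR adjusted p = 0.00022 and 1.03e-05), and both calls held under all 27 alternatives. Those of Fgf6 at 24 h (adjusted p = 0.0355), Fgf21 at 24 h, 48 h and 72 h (log2 fold change -0.81, 0.41 and 0.36) and Fgf5 at 72 h (0.51) were each lost under 2 to 5 alternatives, with adjusted p from 0.0501 to 0.218.

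Hgf, the ligand of Met, was barely detected. WT myoblasts held 22 to 46 counts and KO-labelled myoblasts 20 to 41 counts per library, whereas differentiated libraries held 0 or 1 and fused libraries 0 to 5, so no fold change is given. Of 9 genes for HGF and its activation, 6 were tested, and 3 rose and 2 fell in WT from 24 h to 48 h (2 and 2 with scaling by library size only), where 85% of all genes were called. Plau, the urokinase that can activate HGF, fell from 203 ± 4.75 to 46.9 ± 3.87 CPM (log2 fold change -2.12 ± 0.05, SE, edgeR adjusted p = 3.85e-24). At 48 h it was lower in KO-labelled libraries (-0.46 ± 0.07, adjusted p = 6.33e-06), as Met was. Its call at 24 h (0.14 ± 0.04, adjusted p = 0.0357) was lost under 8 alternatives, with adjusted p from 0.0541 to 0.212. Hgfac, an HGF activator and 1 of the 3 called higher, held 3 to 7 counts per WT library at 24 h and 15 to 19 at 48 h. At so few counts it could pass the filter through its higher groups, so nothing is read from its call.

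Of the other FGF receptors and co-receptors, 6 of 14 tested genes were higher and 7 lower at 48 h in WT (5 and 8 with scaling by library size only), against 6407 and 6445 of all 15123 genes. Fgfr3 rose from 1.20 ± 0.141 to 13.1 ± 1.43 CPM (log2 fold change 3.46 ± 0.14, SE, edgeR adjusted p = 9.68e-19). The syndecan Sdc1 fell from 123 ± 4.61 to 11.6 ± 1.17 CPM and the glypican Gpc6 from 20.2 ± 0.763 to 1.78 ± 0.631 CPM, both heparan sulphate carriers. At 48 h, 6 of the 14 were lower and 2 higher in KO-labelled libraries (8 and 1 with scaling by library size only), against 2139 and 1671 of all 15123 genes, with a median log2 fold change of -0.16 against -0.01. Among them were Sdc3 (-0.93 ± 0.08, adjusted p = 1.53e-09) and Gpc6 (-1.93 ± 0.36, adjusted p = 0.000201, 9 counts in each KO-labelled library). At 72 h, 5 were higher and 0 lower, against 956 and 1016 of all genes (median log2 fold change 0.05 against -0.01), with Flrt1 at 1.80 ± 0.225 against 0.712 ± 0.192 CPM (1.27 ± 0.26, adjusted p = 0.00135) in KO-labelled and WT libraries. Calls of Flrt3 at 72 h (0.39 ± 0.12, adjusted p = 0.0368) and of Flrt1 at 24 h (adjusted p = 0.016) were lost under 9 and 3 alternatives, with adjusted p from 0.0501 to 0.173.

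All 20 genes of the Ras-ERK cascade list passed the filter. In WT 11 rose and 8 fell from 24 h to 48 h (9 and 8 with scaling by library size only), against 6407 and 6445 of all 15123 genes, with a median log2 fold change of 0.27 against 0.02. Araf, a Raf kinase gene, rose from 45.7 ± 2.95 to 145 ± 6.02 CPM. Ksr2, a scaffold gene and 1 of the 11, was called with 1 or 2 counts per library at 24 h and 5 to 11 at 48 h. With counts this low it could pass the filter through its higher groups, so its call is not read as a result. At 48 h, 6 of the 20 genes were higher with the KO label and 1 lower (4 and 2 with scaling by library size only), against 1671 and 2139 of all 15123 genes, with a median log2 fold change of 0.09 against -0.01. Shc1, an adaptor, was 143 ± 2.66 against 112 ± 2.84 CPM (log2 fold change 0.35 ± 0.04, SE, edgeR adjusted p = 2.37e-07) and Hras 165 ± 4.25 against 134 ± 5.04 CPM (0.31 ± 0.05, adjusted p = 2.47e-05). Hras was higher at 72 h as well (0.16 ± 0.04, adjusted p = 0.00449). The 1 call at 24 h, of Map2k1, the MEK1 gene (-0.13 ± 0.04, adjusted p = 0.0221), was lost under 6 alternatives (adjusted p from 0.0697 to 0.103).

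Further feedback inhibitors fell in WT from 24 h to 48 h, 9 of the 9 tested (8 of 9 with the effective-length offset), where 6445 of all 15123 genes fell. Their median log2 fold change was -1.74 against 0.02 over all genes. The phosphatase gene Dusp4 fell from 143 ± 0.495 to 7.97 ± 1.19 CPM (log2 fold change -4.17 ± 0.06, SE, edgeR adjusted p = 1.97e-28), Dusp5 from 48.5 ± 1.96 to 2.77 ± 0.299 CPM and Dusp9 from 3.69 ± 0.174 to 0.420 ± 0.0815 CPM. At 72 h Dusp4 was 18.5 ± 0.506 CPM (n = 4), far below its myoblast level, in contrast to Dusp6. In KO-labelled libraries Dusp4 was lower at 48 h and 72 h, by -1.17 ± 0.13 and -0.25 ± 0.06 (adjusted p = 1.29e-07 and 0.00843). Over the list, 2 were lower and 2 higher at 48 h (2 and 0 with scaling by library size only, 1 and 0 with the effective-length offset). The other lower gene was Cbl, a ubiquitin ligase of receptor tyrosine kinases (-0.42 ± 0.07, adjusted p = 3.73e-05), whose call was lost with that offset (-0.07, adjusted p = 0.868). Calls at 24 h of Dusp4 (-0.16 ± 0.04), Dusp9 (-0.60 ± 0.19) and Dusp5 (0.18 ± 0.05) and at 72 h of Dusp7 (0.20 ± 0.07) were lost under 4, 8, 9 and 18 alternatives, with adjusted p from 0.0507 to 0.452.

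ERK-induced transcripts outside the 10 genes numbered 12, all tested, of which 10 fell and 1 rose in WT from 24 h to 48 h, where 85% of all genes were called and 42.6% fell (median log2 fold change -2.02 against 0.02 over all genes). Fosl1, an AP-1 subunit, fell from 137 ± 2.38 to 3.46 ± 0.542 CPM, the cyclin gene Ccnd1 from 1182 ± 17.8 to 43.4 ± 4.73 CPM and Myc from 68.4 ± 1.70 to 6.94 ± 0.889 CPM. From 48 h to 72 h 7 of the 12 rose and 3 fell, a share called close to the 75.1% of all genes (median log2 fold change 0.94 against -0.01). Egr3, an immediate-early factor, was 1.23 ± 0.499 CPM at 48 h and 56.5 ± 4.56 CPM at 72 h in WT, a late rise as in Etv5 and Dusp6. At 48 h 5 were lower and 1 higher in KO-labelled libraries (3 and 1 with the effective-length offset), against 2139 and 1671 of all 15123 genes (median -0.17 against -0.01). The lower call of Myc (-0.57, edgeR adjusted p = 0.00219) was lost without KO-labelled differentiated replicate 1 (adjusted p = 0.13). Ccnd1 was 11.5 ± 1.41 against 43.4 ± 4.73 CPM (log2 fold change -1.91 ± 0.10, SE, edgeR adjusted p = 8.13e-14), and Fosl1 1.69 ± 0.425 against 3.46 ± 0.542 CPM (-1.04 ± 0.25, adjusted p = 0.00304), the latter lost without KO-labelled differentiated replicate 1 (adjusted p = 0.086) and with the effective-length offset (0.0917). At 72 h the sign for Ccnd1 was opposite (0.42 ± 0.09, adjusted p = 0.0028) and Egr3 was lower (-0.28 ± 0.06, adjusted p = 0.00312, and 0.148 with the effective-length offset).

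**Figure D5:**
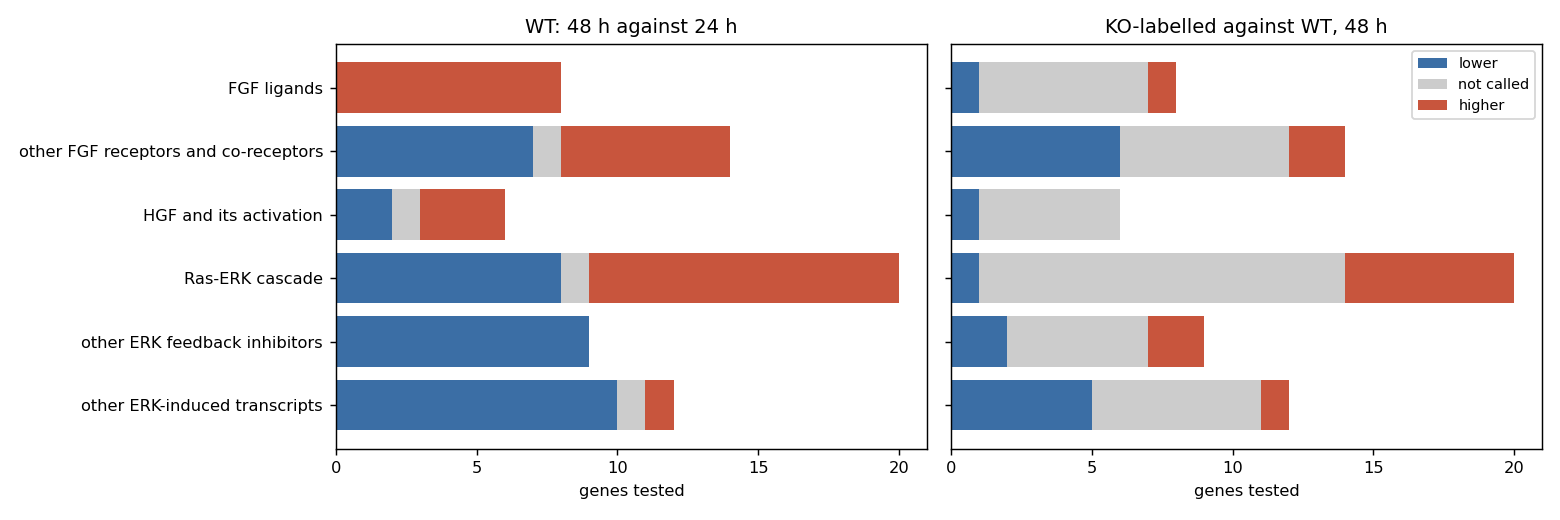
Number of tested genes in each pathway list that were lower (blue), higher (red) or not called (grey) by the edgeR test, for WT at 48 h against 24 h on the left and KO-labelled against WT at 48 h on the right. All 8 FGF ligand genes are higher and all 9 feedback inhibitors lower on the left, and on the right the Ras-ERK cascade has 6 higher and 1 lower.

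Genes with the pattern most like that of a member were found by Pearson's r of log2 CPM over the 19 libraries, which fall into 3 stages, so that the stages set most of each r. For Met these were Ssrp1 (r = 0.9986), Smc2 (0.9984) and Calm2 (0.9984), for Dusp6 Epn2 (0.9936), St3gal2 (0.9936) and Hk1 (0.9929), and for Fgfr4 Maoa (0.9160), Pepd (0.9031) and H13 (0.8982). Among the members, Dusp6 and Etv5 were alike with r = 0.9868, and Met and Spry1 were opposite with r = -0.9810. Smc2, for example, had means of 142 and 158 CPM in WT and KO-labelled myoblasts, 5.14 and 2.35 CPM at 48 h and 3.11 and 3.24 CPM at 72 h, the same order of the labels as Met at 24 h and 48 h.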

How the data were processed

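The authors deposited 1 table per library with an estimated count, a TPM value and an effective length in bases for each of 121843 transcripts, per the file headers. Per the submitters' processing notes, bcl2fastq 2.20, fastp 0.20.0, kallisto 0.46.1 and edgeR 3.36 were used with GRCm38.p6; library strand is not given in the sources used here. Estimated counts of the 121018 transcripts matched to GENCODE M21 were summed to 35598 genes and rounded for the tests (0.255% to 0.507% of counts were unmatched). Groups followed the sample labels. One edgeR 4.0.16 fit (R 4.3.3, limma 3.58.1; TMM, filterByExpr, quasi-likelihood test, Benjamini-Hochberg) over 19 libraries and 6 groups gave 12 comparisons, with calls at an adjusted p of 0.05; it was tested on simulated data. CPM used TMM library sizes. Alternatives were DESeq2 1.42.0 (size factors, test), library size only, other filters, only the libraries compared, a replicate block, an effective-length offset and leaving out each library. Shares were compared by an exact permutation test written in Python 3.11.15. The 10 genes and the lists were chosen with earlier results of these data known. Named from each list were up to 3 called genes of largest change from 24 h to 48 h in WT and up to 2 per genotype comparison, with Hgf always, and the 3 genes most like Fgfr4, Met and Dusp6 among those of mean CPM of at least 1. Glud1 transcripts, the Fgfr1 exon and intron shares and the values of Smc2 were added after values were seen. One gene that this rule names is not reported here.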

Additional observations from a re-analysis of the deposited data

Results flagged for a closer look

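The difference between the genotype labels changed between stages in 10 tests over the 10 genes (interaction terms in the edgeR fit, 3 tests a gene). From 24 h to 48 h the log2 difference changed by -0.79 for Met (adjusted p = 7.35e-08), -0.61 for Spry2 (9.08e-06), -0.97 for Etv4 (0.00448) and 0.32 for Spry1 (0.0217). From 48 h to 72 h it changed by 0.61 for Met (adjusted p = 4.94e-05), 0.39 for Etv5 (0.00174), 1.01 for Etv4 (0.0114) and 0.27 for Spry2 (0.0335). From 24 h to 72 h it changed by 0.34 for Spry1 (adjusted p = 0.0126) and -0.33 for Spry2 (0.00244). The stage contrasts share libraries, and those with the 48 h stage rest on 2 KO-labelled libraries.

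Dusp6 in WT fused replicate 4 was 109 CPM, below the 126 to 128 CPM of the other 3, with a gap of 0.895 of the group's range, above Dixon's critical value. It was the 1 such case among 20 groups of 4 looked at, where chance gives about 1 in 20 if groups are independent. The groups share the same fused libraries, so they are not independent. Replicate 4 was also the lowest WT fused library for Spry1, Spry2, Etv4 and Etv5, but not for Fgf2, Fgfr1, Fgfr4 or Spry4. The cause was not tested.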

How the results depend on the processing

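Among 3221 member values under alternatives, 3139 kept their side of the threshold, 57 lost a call and 25 gained one. The sign changed in 43, none of them called in either fit. With an effective-length offset the genes called between genotype labels went from 1747 to 587 at 24 h, from 3810 to 2146 at 48 h and from 1972 to 821 at 72 h. Members called went from 3 to 1 at 24 h and from 2 to 1 at 72 h. For the change of the genotype difference, genes called went from 2890 to 1452 (24 h to 48 h), 2238 to 982 (48 h to 72 h) and 1557 to 663 (24 h to 72 h), and members from 4 to 2 in each of the first 2. Fitting only the libraries compared gave 2625 genes at 24 h, and the DESeq2 test gave 1 member at 72 h. The cause was not tested.

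Leaving out 1 library gave 925 to 2008 genes at 24 h, 1 to 3 members at 72 h, and for the change of the genotype difference 1 to 5 members (48 h to 72 h) and 1 to 3 members (24 h to 72 h). The lowest gene count at 24 h came without WT myoblast replicate 3. Where 1 KO-labelled differentiated library was left out, the other was assumed to vary like the other groups.

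With the replicate number as a block, members called between labels were 3, 5 and 2 and genes 1666, 3667 and 1858. The numbers gave no sign of pairing the samples. Same-numbered libraries correlated between -0.0536 and 0.0563 in their deviations (41 pairs), and other-numbered ones between -0.0748 and 0.0661 (108 pairs). A weak pairing could be missed this way. In KO-labelled cells from 48 h to 72 h the block gained Fgfr4 (adjusted p = 0.0436) and lost Fgf2 (0.104). Scaling by library size only moved the median log2 change of all genes from 24 h to 48 h in WT from 0.02 to -0.23, and in KO-labelled cells to -0.31. Fgfr4 was not tested with a mean CPM filter of 1, and its 3 to 27 counts limit its precision.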
